A study of Mus musculus with 12 samples.

Results

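The 50 genes described here code for the proteasome: its catalytic core, its regulatory cap, its activators and inhibitor, and the chaperones that assemble it. They are the protein-coding genes of 55604 counted genes whose mouse symbols begin with Psma, Psmb, Psmc, Psmd, Psme, Psmf or Psmg followed by a digit. One of them, Psmc3ip, matches by name only and is no proteasome subunit. Another 4 name matches were not protein coding and were left out.

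RNA was sequenced from C57BL/6 mouse bone marrow-derived macrophages cultured with dead cells of the mouse melanoma line B16-F10 or with none. The first group received corpses of STC1OE cells, which overexpress the secreted glycoprotein stanniocalcin 1, the second received corpses of control B16-F10 cells, and the third, the macrophages alone, received none. All macrophages were grown from marrow with 20 ng/ml of M-CSF and taken on day 7; corpses were added for 20 h at a ratio the labels give as 1 to 5, and those not bound were then washed off, so RNA of corpses still attached or engulfed can be among that sequenced. Each group has 4 libraries, which the series' design text describes as independent experiments.

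The proteasome degrades proteins that carry ubiquitin chains. Its barrel-shaped 20S core has outer rings of alpha subunits and inner rings of beta subunits, 3 of which cut peptide bonds, and the 19S cap recognises, unfolds and feeds in the substrate with the force of 6 ATPases. In cells exposed to interferon, and in many immune cells at rest, the catalytic subunits PSMB5, PSMB6 and PSMB7 can be replaced by PSMB8, PSMB9 and PSMB10, which gives the immunoproteasome and a different set of peptides for presentation on MHC class I.

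By role, the genes comprise 7 alpha subunits, 4 structural beta subunits, 3 constitutive catalytic subunits, 3 immunoproteasome subunits, 2 tissue-restricted 20S subunits, 6 ATPases and 11 other subunits of the 19S cap, 7 assembly chaperones, 6 activators or inhibitors and the name match. Of the 50 genes, 49 passed the filter on low counts and were tested. The exception was Psmb11, the core subunit of thymic cortical epithelium, which had 8 reads over the 12 libraries together.

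The libraries held 28488441 to 39981074 reads assigned to genes. The sum of 10 macrophage marker genes was 14075 to 15191 CPM (read counts scaled to the size of the library) with STC1OE corpses, 14131 to 15808 CPM with control corpses and 16428 to 17324 CPM in macrophages alone. The 11 melanocyte genes listed as markers of the corpses summed to 6.26 to 7.25 CPM with STC1OE corpses, 12.4 to 16.3 CPM with control corpses and 2.16 to 2.57 CPM in macrophages alone, where Tyr, Gpr143 and Oca2 were at 0. Slc24a5, at 1.83 to 1.98 CPM in macrophages alone, made up most of the last sum; without it the other 10 summed to 3.31 to 4.73 CPM with STC1OE corpses, 9.92 to 13.2 CPM with control corpses and 0.234 to 0.593 CPM in macrophages alone. B cell markers summed to 4.35 to 4.74, 4.60 to 5.32 and 14.4 to 15.8 CPM in the groups with STC1OE corpses, control corpses and none, and neutrophil markers to 4.11 to 4.97, 3.66 to 5.04 and 14.8 to 16.7 CPM in the same 3 groups; Ly6g was at 0 in every library. T and NK cell markers stayed at or below 0.678 CPM and dendritic cell markers at or below 1.82 CPM in every library. The part these other cells have in the proteasome values was not tested, and in bulk RNA fewer cells of a type and less RNA per cell cannot be told apart.

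The sequences just upstream of the RefSeq starts of 6 of the genes are printed here because the results turn on these members: the catalytic subunits, other than Psmb7, and Psmd2, the cap subunit with the lowest p against macrophages alone. Psmb7 had no entry in the table and was neither printed nor searched. Each is the 250 bases before the gene's start in the RefSeq table for GRCm38.p6, read 5′ to 3′ on the gene's own strand. In the GENCODE annotation some of these genes begin further upstream. By its coordinates the windows of Psmb8 and Psmb9 lie wholly inside the gene, and those of Psmb5 and Psmb10 partly. Capitals mark a match to a motif searched on either strand.
Psmb5, chr14:54617996-54618245, minus strand: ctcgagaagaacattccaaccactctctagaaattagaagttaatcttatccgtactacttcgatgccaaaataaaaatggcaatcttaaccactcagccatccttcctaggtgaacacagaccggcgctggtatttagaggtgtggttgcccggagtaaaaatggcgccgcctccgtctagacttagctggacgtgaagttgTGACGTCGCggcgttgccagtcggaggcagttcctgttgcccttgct
Psmb8, chr17:34197945-34198194, plus strand: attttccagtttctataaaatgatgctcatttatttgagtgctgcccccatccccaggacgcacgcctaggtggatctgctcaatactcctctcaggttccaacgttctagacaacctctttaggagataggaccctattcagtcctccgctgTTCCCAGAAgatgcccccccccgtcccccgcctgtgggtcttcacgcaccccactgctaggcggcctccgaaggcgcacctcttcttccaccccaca
Psmb6, chr11:70525107-70525356, plus strand: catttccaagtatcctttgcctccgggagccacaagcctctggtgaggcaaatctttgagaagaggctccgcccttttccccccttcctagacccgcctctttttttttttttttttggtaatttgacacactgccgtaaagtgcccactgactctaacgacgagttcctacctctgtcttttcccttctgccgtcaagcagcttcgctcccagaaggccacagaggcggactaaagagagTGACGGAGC
Psmb9, chr17:34187331-34187580, minus strand: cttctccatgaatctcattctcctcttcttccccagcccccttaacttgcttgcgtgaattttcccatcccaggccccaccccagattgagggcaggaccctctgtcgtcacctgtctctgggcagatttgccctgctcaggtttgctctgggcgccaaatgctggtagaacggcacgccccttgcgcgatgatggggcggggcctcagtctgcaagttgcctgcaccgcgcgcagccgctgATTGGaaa
Psmb10, chr8:105938393-105938642, minus strand: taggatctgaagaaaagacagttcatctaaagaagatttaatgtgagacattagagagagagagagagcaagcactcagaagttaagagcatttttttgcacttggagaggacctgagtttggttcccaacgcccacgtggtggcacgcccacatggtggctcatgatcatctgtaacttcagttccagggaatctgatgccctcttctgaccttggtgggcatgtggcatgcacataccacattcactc
Psmd2, chr16:20651402-20651651, plus strand: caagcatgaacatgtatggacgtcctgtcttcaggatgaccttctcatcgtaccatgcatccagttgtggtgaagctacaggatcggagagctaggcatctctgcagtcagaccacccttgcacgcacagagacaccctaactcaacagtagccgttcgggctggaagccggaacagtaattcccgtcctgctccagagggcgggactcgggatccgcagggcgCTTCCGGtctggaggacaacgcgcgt

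The capitals are the core of the antioxidant response element (TGACNNNGC) in Psmb5, 47 bases before the start, and in Psmb6, where it ends at the last base before the start. In Psmb8 they are a gamma-activated site (TTCNNNGAA), 97 bases before the RefSeq start and inside the gene by its GENCODE coordinates. In Psmb9 they are a CCAAT box on the opposite strand, 8 bases before the start, and in Psmd2 they are an ETS site (CCGGAAG) on the opposite strand, 26 bases before it. In Psmb10 none of the 5 motifs was found, and the fifth motif, the core of the interferon-stimulated response element (GAAA, then any pair of bases, then GAAA), was in none of the 6 windows. RefSeq entries were matched for 42 of the 50 genes. The antioxidant core was in 5 of these 42 windows, or 11.9%, against 11.5% of all 27025 genes with a RefSeq window, and the gamma-activated site in 2, or 4.76%, against 8.13%. The CCAAT box was in 15 windows, or 35.7%, against 37.5%, and the interferon-stimulated core in 3, or 7.14%, against 3.46%. The ETS site was in 13 windows, or 31%, against 7.83% of the same 27025 genes. These are the windows of Psma6, Psmc1, Psmc2, Psmc3ip, Psmc6, Psmd2, Psmd4, Psmd6, Psmd11, Psmd12, Psme3, Psme4 and Psmg1. The 27025 genes were not matched to the members in expression, and whether the site goes with the calls was not tested. A match is a stretch of letters and not a bound site.

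Most proteasome genes were expressed at a higher level in macrophages that had received corpses, by small amounts. With control corpses, 29 of the 49 tested genes rose and 1 fell relative to macrophages alone (edgeR quasi-likelihood test, Benjamini-Hochberg adjusted p below 0.05), against a background of 40.1% of all 16406 tested genes called, 19.7% higher and 20.5% lower; the share of members is 59.2% higher and 2.04% lower. With STC1OE corpses, 31 rose and 3 fell relative to macrophages alone, which is 63.3% and 6.12% of the members, against a background of 43.8% called, 21.4% higher and 22.4% lower. The median log2 fold change over the tested members was 0.17 with STC1OE corpses and 0.15 with control corpses, each against macrophages alone, beside medians of -0.03 and -0.00096 over all genes tested. Both comparisons use the same 4 libraries of macrophages alone and are therefore not independent of each other.

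The sizes were modest throughout. Among called members, log2 fold changes ran from -0.12 to 0.41 with STC1OE corpses and from -0.16 to 0.42 with control corpses. When the test asked for a change beyond 1.2-fold, 6 members were called higher with STC1OE corpses (Psmb3, Psmb5, Psmb6, Psmd2, Psmd8 and Psme3; background 5.5% of genes higher and 7.41% lower) and 1 with control corpses (Psmd2; background 4.49% higher and 5.8% lower). The 4 values with STC1OE corpses all lay above the 4 of macrophages alone for 30 members and all below for 2, beside 19.7% and 20.2% of all genes. For control corpses the numbers were 28 above and 1 below, beside 18.3% and 18.9%.

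**Figure D1:**
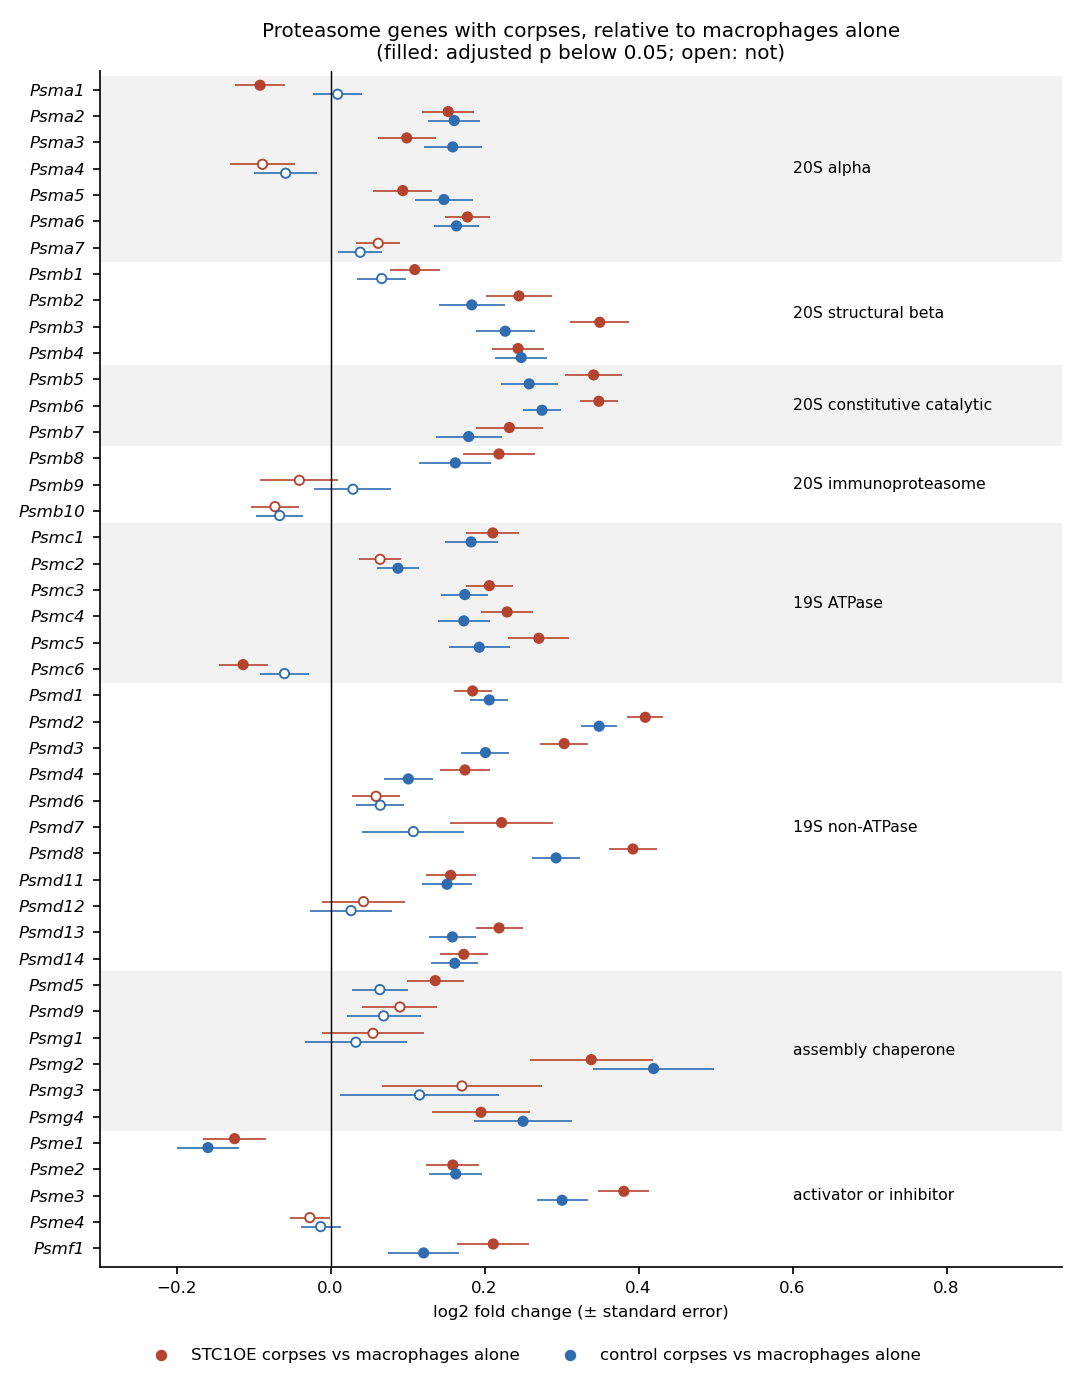
Log2 fold change with its standard error for 45 proteasome genes, ordered by role, in macrophages with STC1OE corpses (red) and with control corpses (blue) relative to macrophages alone; filled points have an adjusted p below 0.05. Psma8, Psmb11, Psmc3ip, Psmd10 and Psme2b, with few reads or no role in the complex, are not drawn. Most points of the beta subunits and of the 19S cap lie right of 0, while Psmb9 and Psme4 lie near 0. Psme1 lies left of 0 with filled points, and Psma4 and Psmb10 lie left of it with open points. Psma1 and Psmc6 have filled points left of 0 with STC1OE corpses only.

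The 3 constitutive catalytic subunits rose with both kinds of corpse. This and the later counts by class stand beside 21.4% of all genes higher and 22.4% lower with STC1OE corpses. With control corpses the shares of all genes are 19.7% higher and 20.5% lower. In a class of few genes a count says little of the class. Psmb5, which carries the chymotrypsin-like site (chromosome 14, 54614119 to 54618022, GRCm38), stood at 50.7, 48.4, 47.1 and 49.6 CPM with STC1OE corpses, at 46.6, 44.4, 45.5 and 48.4 CPM with control corpses and at 37.5, 40.6, 38.2 and 38.3 CPM in macrophages alone. Every library with corpses lay above every library without, while the 2 corpse groups overlapped. The log2 fold change was 0.34 ± 0.04 (SE) with STC1OE corpses and 0.26 ± 0.04 with control corpses (edgeR, adjusted p 5.21e-09 and 1.01e-06).

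Psmb6, which carries the caspase-like site (chromosome 11, 70525367 to 70527858), had 139.7, 141.3, 138.7 and 139.0 CPM with STC1OE corpses, 132.5, 133.3, 133.5 and 131.6 CPM with control corpses and 110.4, 112.4, 106.9 and 109.3 CPM in macrophages alone. The 3 groups did not overlap at all. Its log2 fold change was 0.35 ± 0.03 with STC1OE corpses and 0.27 ± 0.02 with control corpses (edgeR, adjusted p 5.68e-13 and 1.4e-10). Psmb7, with the trypsin-like site, reached 26.4, 26.4, 25.8 and 25.4 CPM with STC1OE corpses and 26.9, 24.3, 24.2 and 24.7 CPM with control corpses, against 21.7, 22.6, 22.1 and 22.0 CPM in macrophages alone. Again both corpse groups lay above macrophages alone, with log2 fold changes of 0.23 ± 0.04 with STC1OE corpses and 0.18 ± 0.04 with control corpses (edgeR, adjusted p 4.63e-05 and 0.00104). In the annotation, 11.8% of the Psmb7 exon bases overlap Nek6 on the opposite strand and 12.1% of those of Psmb5 overlap Mir686.

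Of the 3 immunoproteasome subunits, 1 rose with each kind of corpse. That is 33.3%, beside 21.4% of all genes with STC1OE corpses and 19.7% with control corpses. With 3 genes this is no result about the class. Psmb8, the inducible counterpart of Psmb5 (chromosome 17, 34197721 to 34201454), had 27.5, 26.7, 28.5 and 28.5 CPM with STC1OE corpses, 27.01, 27.3, 25.2 and 27.5 CPM with control corpses and 22.3, 26.3, 23.9 and 23.1 CPM in macrophages alone. Library 2 of macrophages alone lay within the range of the control corpses, and all 4 libraries with STC1OE corpses lay above it. The log2 fold change was 0.22 ± 0.05 with STC1OE corpses and 0.16 ± 0.05 with control corpses (edgeR, adjusted p 0.000287 and 0.00564).

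Psmb9, the inducible counterpart of Psmb6 (chromosome 17, 34181987 to 34187764), had 18.4, 18.8, 21.1 and 20.0 CPM with STC1OE corpses, 19.03, 20.4, 21.2 and 21.6 CPM with control corpses and 20.2, 19.6, 20.6 and 20.1 CPM in macrophages alone. The groups overlapped, and the log2 fold changes of -0.04 ± 0.05 with STC1OE corpses and 0.03 ± 0.05 with control corpses did not pass the test (edgeR, adjusted p 0.556 and 0.69). Psmb10, the inducible counterpart of Psmb7 (chromosome 8, 105935735 to 105938444), had 59.3, 59.1, 58.6 and 59.9 CPM with STC1OE corpses, 58.4, 58.9, 60.6 and 60.02 CPM with control corpses and 61.4, 62.6, 64.6 and 60.5 CPM in macrophages alone. All 4 libraries with STC1OE corpses were below those of macrophages alone, but neither log2 fold change, -0.07 ± 0.03 in each comparison, passed the test (edgeR, adjusted p 0.0603 and 0.0895). The miss with STC1OE corpses was not stable. Its adjusted p was 0.0278 with upper-quartile scaling and 0.0394 without library 4 of macrophages alone (edgeR).

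Psmb9 lies head to head with Tap1, a subunit of the peptide transporter, and the RefSeq starts of the pair are 226 bases apart. In GENCODE, where Psmb9 begins further upstream, its exons overlap Tap1 over 5.79% of their length on the opposite strand, and 14.7% of the exon bases of Psmb8 overlap Gm20496. Whether counting used strand is not known here, so reads of the pair over that stretch cannot be told apart. Tap1 rose with STC1OE corpses by 0.26 ± 0.04 and with control corpses by 0.24 ± 0.04 on the log2 scale (edgeR, adjusted p 2e-05 and 6.6e-05), while Psmb9 was not called.

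**Figure D2:**
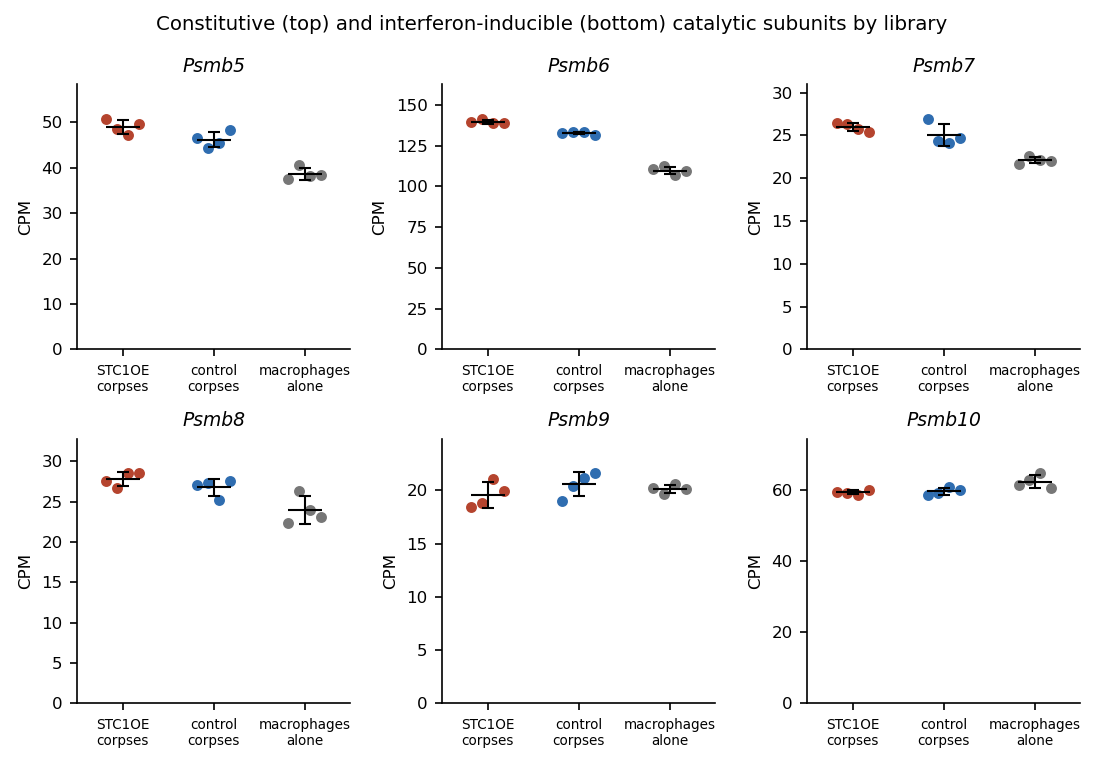
CPM of each library (points) with the mean and SD (bars) for the constitutive catalytic subunits Psmb5, Psmb6 and Psmb7 (top) and their inducible counterparts Psmb8, Psmb9 and Psmb10 (bottom), for macrophages with STC1OE corpses, control corpses or none. The top row shows both corpse groups above macrophages alone; in the bottom row the groups overlap except for STC1OE corpses against macrophages alone in Psmb8, where they are higher, and in Psmb10, where they are lower.

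The balance between inducible and constitutive subunit at each catalytic position can be read from a ratio of 2 counts in the same library, which needs no scaling between libraries. For the position of Psmb9 and Psmb6, the count ratio was 0.132, 0.133, 0.152 and 0.144 with STC1OE corpses, 0.144, 0.153, 0.159 and 0.164 with control corpses and for macrophages alone 0.183, 0.175, 0.193 and 0.184. All 8 libraries with corpses were lower than all 4 without. On the log2 scale the difference was -0.39 with STC1OE corpses and -0.24 with control corpses, each with a raw p of 0.0286 in a two-sided exact permutation test, which cannot give less with groups of 4, and 0.0643 after Benjamini-Hochberg adjustment over the 9 ratio comparisons.

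For Psmb10 over Psmb7, the count ratio was 2.25, 2.24, 2.27 and 2.36 with STC1OE corpses, 2.17, 2.42, 2.51 and 2.43 with control corpses and for macrophages alone 2.83, 2.77, 2.92 and 2.74. Here too the libraries with corpses were all lower, by 0.30 with STC1OE corpses and 0.24 with control corpses on the log2 scale, again with a raw p of 0.0286 and an adjusted p of 0.0643 in the exact permutation test. For Psmb8 over Psmb5, the ratio averaged 0.569 ± 0.028 (SD) with STC1OE corpses, 0.579 ± 0.025 with control corpses and for macrophages alone 0.618 ± 0.024. These groups overlapped, and the log2 differences from macrophages alone of -0.12 with STC1OE corpses and -0.09 with control corpses each had an adjusted p of 0.11 in the exact permutation test. None of the 9 ratio comparisons passed the adjusted threshold of 0.05. For those at a raw p of 0.0286, the smallest possible here, full separation of the groups could not pass by itself. Their miss therefore does not decide whether those ratios changed.

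Per kilobase of the principal transcript, Psmb10 messages made up 66.8% ± 0.53 (SD, n = 4) of Psmb10 plus Psmb7 with STC1OE corpses, 67.8% ± 1.40 with control corpses and for macrophages alone 71.3% ± 0.57. Psmb8 made up 23.9% ± 0.90 of Psmb8 plus Psmb5 with STC1OE corpses, 24.2% ± 0.78 with control corpses and for macrophages alone 25.4% ± 0.73. The inducible share was lowest at the third position, where Psmb9 made up 7.64% ± 0.48 with STC1OE corpses, 8.38% ± 0.44 with control corpses and for macrophages alone 9.77% ± 0.35. These are shares of messages and not of assembled proteasomes.

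**Figure D3:**
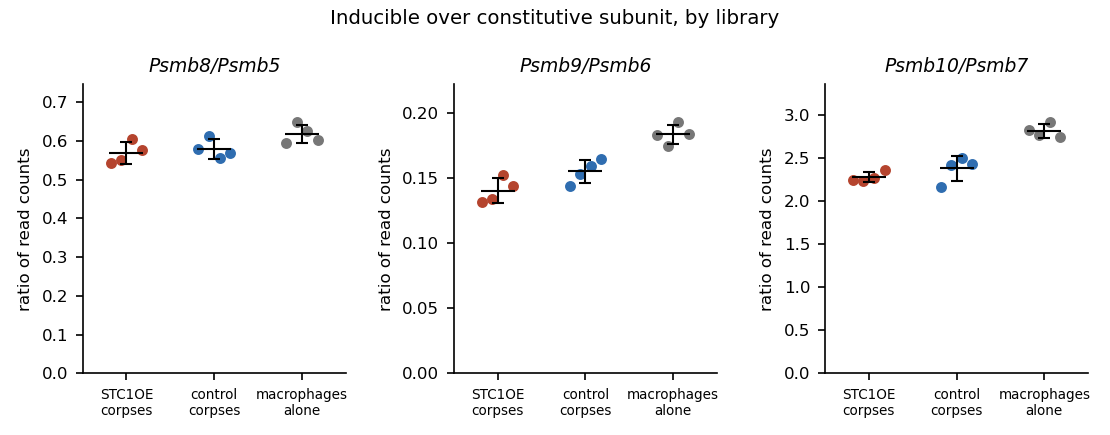
Ratio of read counts of the inducible to the constitutive subunit at each catalytic position, by library (points) with the mean and SD (bars). Psmb9/Psmb6 and Psmb10/Psmb7 are lower in all 8 libraries with corpses than in the 4 of macrophages alone, while the Psmb8/Psmb5 values of the 3 groups overlap.

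The rest of the core moved less evenly. All 4 structural beta genes rose with STC1OE corpses and 3 with control corpses; Psmb1 was the exception, at 79.2, 76.2, 76.8 and 77.5 CPM with STC1OE corpses, 78.5, 75.9, 71.5 and 74.8 CPM with control corpses and 71.7, 71.4, 69.4 and 74.7 CPM in macrophages alone. Its log2 fold change was 0.11 ± 0.03 with STC1OE corpses and 0.07 ± 0.03 with control corpses (edgeR, adjusted p 0.00591 and 0.0992). With control corpses Psmb1 was called higher in some fits with a library left out. These were without library 4 of macrophages alone (edgeR, adjusted p 0.0479), library 3 with control corpses (0.0174) or library 1 with STC1OE corpses (0.0463). Psmb3, which sits in the beta ring without an active site, had 57.5, 55.7, 62.3 and 59.2 CPM with STC1OE corpses, 55.1, 50.8, 54.8 and 54.7 CPM with control corpses and 45.3, 44.3, 45.8 and 48.6 CPM in macrophages alone. The 3 groups did not overlap, and its log2 fold change was 0.35 ± 0.04 with STC1OE corpses and 0.23 ± 0.04 with control corpses (edgeR, adjusted p 6.32e-09 and 1.35e-05). Psmb4 had 126.6, 123.9, 119.9 and 112.6 CPM with STC1OE corpses, 121.0, 118.7, 118.9 and 125.6 CPM with control corpses and 97.8, 99.1, 105.8 and 104.8 CPM in macrophages alone. With log2 fold changes of 0.24 ± 0.03 with STC1OE corpses and 0.25 ± 0.03 with control corpses the corpse groups were nearly level for this gene (edgeR, adjusted p 5.73e-07 and 4.52e-07). Psmb2 had 53.7, 51.1, 56.5 and 52.7 CPM with STC1OE corpses and 54.9, 50.7, 51.4 and 47.8 CPM with control corpses, against 44.0, 47.9, 46.4 and 42.4 CPM in macrophages alone, and rose by 0.24 ± 0.04 with STC1OE corpses and 0.18 ± 0.04 with control corpses.

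In the alpha ring, whose subunits form the gate of the barrel, 4 of 7 genes rose with each kind of corpse: Psma2, Psma3, Psma5 and Psma6. That is 57.1%, beside 21.4% of all genes with STC1OE corpses and 19.7% with control corpses. Psma6 had 85.6, 81.5, 81.1 and 83.1 CPM with STC1OE corpses, 83.3, 80.1, 82.0 and 82.7 CPM with control corpses and 73.8, 70.5, 74.0 and 74.6 CPM in macrophages alone. It rose by 0.18 ± 0.03 with STC1OE corpses and 0.16 ± 0.03 with control corpses, with no overlap between libraries with and without corpses (edgeR, adjusted p 9.35e-06 and 3.3e-05). Psma5 had 52.2, 50.4, 50.6 and 47.8 CPM with STC1OE corpses, 53.3, 52.1, 50.0 and 53.1 CPM with control corpses and 48.7, 45.6, 49.5 and 44.6 CPM in macrophages alone. Its fold change was 0.09 ± 0.04 with STC1OE corpses, where the ranges overlapped, and 0.15 ± 0.04 with control corpses (edgeR, adjusted p 0.0458 and 0.00196). The call with STC1OE corpses was lost without library 2 or 4 of macrophages alone (edgeR, adjusted p 0.131 and 0.193). It was also lost without library 4 with control corpses (0.0531) or library 1 or 3 with STC1OE corpses (0.09 and 0.056). Upper-quartile scaling lost it as well (edgeR, adjusted p 0.0851).

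Psma1 went the other way. It had 73.6, 72.2, 70.2 and 72.2 CPM with STC1OE corpses, 80.5, 73.9, 77.6 and 77.0 CPM with control corpses and 78.6, 73.3, 76.2 and 79.0 CPM in macrophages alone. It fell by 0.09 ± 0.03 on the log2 scale with STC1OE corpses relative to macrophages alone (edgeR, adjusted p 0.0211), where 1 library overlapped, and its change of 0.01 ± 0.03 with control corpses did not pass the test. Without library 1 or 4 of macrophages alone, library 3 with control corpses, or library 2, 3 or 4 with STC1OE corpses, the adjusted p of the first comparison was 0.105, 0.0793, 0.0502, 0.0628, 0.13 and 0.0872. In the same comparison the adjusted p of Psma1 was 0.0718 with DESeq2 and 0.059 with only the 2 groups compared (edgeR). Psma4 and Psma7 were called in neither comparison.

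In the 19S cap, 13 of 17 genes rose and 1 fell with STC1OE corpses, and 13 rose with control corpses. That is 76.5% higher and 5.88% lower with STC1OE corpses, beside 21.4% and 22.4% of all genes. With control corpses it is 76.5% higher, beside 19.7% of all genes. Among the 6 ATPases, which unfold the substrate, 4 rose and 1 fell with STC1OE corpses and 5 rose with control corpses. Psmc5 had 67.2, 63.6, 69.8 and 70.4 CPM with STC1OE corpses, 68.5, 61.9, 61.9 and 64.4 CPM with control corpses and 59.0, 56.6, 56.7 and 52.5 CPM in macrophages alone. It rose by 0.27 ± 0.04 with STC1OE corpses and 0.19 ± 0.04 with control corpses (edgeR, adjusted p 1.71e-06 and 0.000205). Psmc1, Psmc3 and Psmc4 rose by 0.21 to 0.23 with STC1OE corpses and by 0.17 to 0.18 with control corpses. Psmc2 had 86.5, 83.4, 86.7 and 84.8 CPM with STC1OE corpses, 87.5, 85.8, 86.4 and 87.2 CPM with control corpses and 81.5, 82.3, 80.3 and 82.4 CPM in macrophages alone; its 0.09 ± 0.03 with control corpses passed the test and its 0.06 ± 0.03 with STC1OE corpses did not (edgeR, adjusted p 0.00983 and 0.0568). The miss with STC1OE corpses depended on the processing: the adjusted p was 0.0234 with RLE scaling, 0.0309 with DESeq2 and 0.0259 with only the 2 groups compared, and 0.0198 to 0.0444 without library 1 of macrophages alone, library 2 or 3 with control corpses, or library 2 or 4 with STC1OE corpses. Psmc6 fell by 0.11 ± 0.03 with STC1OE corpses, at 52.5, 51.1, 52.8 and 51.5 CPM there, 54.6, 52.9, 54.5 and 53.7 CPM with control corpses and 57.8, 57.1, 54.5 and 55.6 CPM in macrophages alone (edgeR, adjusted p 0.00415).

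The other 11 cap subunits form the base scaffold, the ubiquitin receptors and the lid with its deubiquitinase. Of these, 9 rose with STC1OE corpses and 8 with control corpses. Psmd2, the large scaffold subunit on which ubiquitin shuttles dock, was the most abundant member by reads, with 375.9, 365.9, 382.8 and 377.1 CPM with STC1OE corpses, 356.8, 360.5, 362.4 and 360.9 CPM with control corpses and 283.6, 284.1, 275.4 and 288.0 CPM in macrophages alone. The 3 groups did not overlap. Its log2 fold change of 0.41 ± 0.02 with STC1OE corpses and 0.35 ± 0.02 with control corpses had the lowest adjusted p of all members in each comparison (edgeR, 2.95e-15 and 1.61e-13).

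Psmd8, a lid subunit, had 204.8, 207.3, 220.3 and 219.3 CPM with STC1OE corpses, 199.4, 202.1, 191.4 and 201.9 CPM with control corpses and 170.8, 164.9, 159.9 and 153.4 CPM in macrophages alone, again without overlap. It rose by 0.39 ± 0.03 with STC1OE corpses and 0.29 ± 0.03 with control corpses (edgeR, adjusted p 9.63e-12 and 5.33e-09). Psmd4, the ubiquitin receptor, had 79.1, 76.4, 77.0 and 83.8 CPM with STC1OE corpses, 76.5, 74.4, 74.0 and 75.8 CPM with control corpses and 68.3, 71.6, 72.0 and 68.4 CPM in macrophages alone. Its rise of 0.17 ± 0.03 with STC1OE corpses and 0.10 ± 0.03 with control corpses was smaller (edgeR, adjusted p 4.07e-05 and 0.0117). Psmd11, a lid subunit, had 83.5, 80.7, 86.3 and 89.4 CPM with STC1OE corpses and 88.2, 81.0, 84.4 and 85.2 CPM with control corpses, against 75.9, 77.1, 75.5 and 76.7 CPM in macrophages alone, and rose by 0.16 ± 0.03 with STC1OE corpses and 0.15 ± 0.03 with control corpses. Psmd14, the deubiquitinase that strips chains from the substrate, rose by 0.17 ± 0.03 with STC1OE corpses and 0.16 ± 0.03 with control corpses, and Psmd1 and Psmd13 by 0.18 and 0.22 with STC1OE corpses and by 0.21 and 0.16 with control corpses. Psmd6 and Psmd12 were called in neither comparison, and Psmd7 was called with STC1OE corpses (0.22 ± 0.07) and not with control corpses (0.11 ± 0.07; edgeR, adjusted p 0.0164 and 0.233).

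Taking the constitutive 20S and 19S subunits as 1 group of 31, 24 rose and 2 fell with STC1OE corpses, and 23 rose and 0 fell with control corpses. That is 77.4% higher and 6.45% lower with STC1OE corpses, beside 21.4% and 22.4% of all genes. With control corpses it is 74.2% higher, beside 19.7% of all genes. The median log2 fold change of the 31 was 0.18 with STC1OE corpses and 0.16 with control corpses.

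The activators, which open the alpha gate in place of the 19S cap, differed among themselves. Psme3, which codes for the nuclear activator PA28 gamma (chromosome 11, 101316213 to 101323537), had 107.9, 101.9, 106.9 and 111.9 CPM with STC1OE corpses, 103.3, 95.2, 103.9 and 103.1 CPM with control corpses and 80.3, 86.3, 80.9 and 81.8 CPM in macrophages alone. Every library with corpses was higher than every library without, by 0.38 ± 0.03 with STC1OE corpses and 0.30 ± 0.03 with control corpses on the log2 scale (edgeR, adjusted p 4.62e-11 and 7.77e-09). Psme4, which codes for PA200, had 122.7, 120.0, 117.3 and 118.7 CPM with STC1OE corpses, 118.0, 123.8, 120.0 and 121.7 CPM with control corpses and 124.1, 121.7, 122.2 and 119.7 CPM in macrophages alone. Its log2 fold changes were -0.03 ± 0.03 with STC1OE corpses and -0.01 ± 0.03 with control corpses, neither past the test.

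Psme1 and Psme2 code for the alpha and beta subunits of the interferon-inducible activator PA28 and stand close together on chromosome 14, at 55578123 to 55581529 and 55587441 to 55591113. Psme2 rose while Psme1 fell. Psme2 had 72.1, 68.0, 76.8 and 71.7 CPM with STC1OE corpses, 74.0, 70.9, 69.7 and 74.6 CPM with control corpses and 64.4, 66.0, 65.0 and 63.1 CPM in macrophages alone, and rose by 0.16 ± 0.03 in each comparison (edgeR, adjusted p 0.000325 and 0.000249). Psme1 had 51.2, 53.0, 58.7 and 55.7 CPM with STC1OE corpses, 54.8, 50.1, 53.7 and 54.7 CPM with control corpses and 56.3, 62.6, 59.1 and 60.3 CPM in macrophages alone. It fell by 0.12 ± 0.04 with STC1OE corpses, where 1 of the 4 libraries overlapped the range of macrophages alone, and by 0.16 ± 0.04 with control corpses, where none did (edgeR, adjusted p 0.0135 and 0.00198). The first of these calls was lost without library 2 of macrophages alone, or library 1 or 2 with STC1OE corpses (adjusted p 0.0643, 0.103 and 0.0672). Psme2b, a near-identical copy of Psme2 on chromosome 11, had 0.207 to 0.680 CPM, and how reads were split between the copies is not known.

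Psmf1, which codes for the proteasome inhibitor PI31, had 26.4, 29.0, 31.4 and 31.4 CPM with STC1OE corpses, 27.7, 27.5, 28.2 and 27.6 CPM with control corpses and 25.0, 25.2, 26.5 and 25.3 CPM in macrophages alone. It rose by 0.21 ± 0.05 with STC1OE corpses, where library 1 overlapped macrophages alone, and by 0.12 ± 0.05 with control corpses (edgeR, adjusted p 0.000384 and 0.0368). The second call was lost without library 1, 2 or 4 of macrophages alone (edgeR, adjusted p 0.0551, 0.0819 and 0.0795). It was also lost without library 1, 3 or 4 with control corpses (0.06, 0.058 and 0.0611), and with DESeq2 (adjusted p 0.0588).

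**Figure D4:**
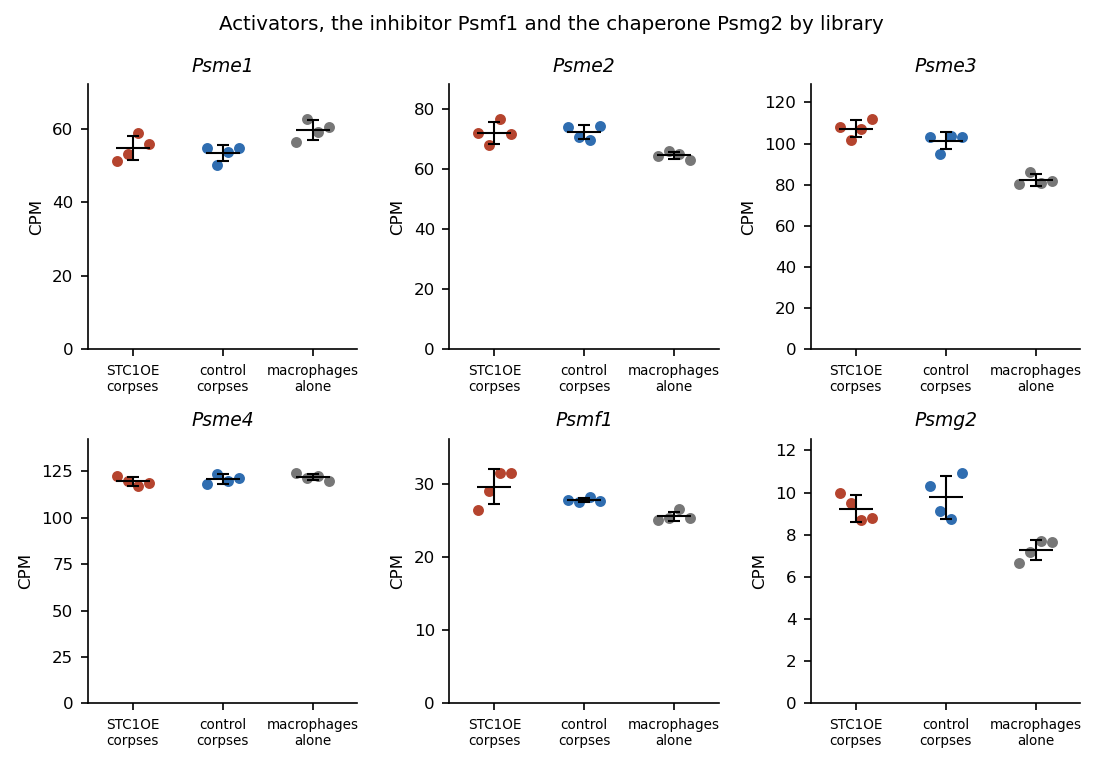
CPM of each library (points) with the mean and SD (bars) for the activator genes Psme1 to Psme4, the inhibitor Psmf1 and the assembly chaperone Psmg2, for macrophages with STC1OE corpses, control corpses or none. Psme3 and Psmg2 are higher in all 8 libraries with corpses, the 3 groups overlap for Psme4, and Psme1 is lower with control corpses.

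Assembly chaperones help the rings and the cap form and leave before the complex is active. Of the 7, 3 rose with STC1OE corpses and 2 with control corpses, or 42.9% and 28.6%, beside 21.4% and 19.7% of all genes. With 7 genes this is no result about the chaperones as a class. Psmg2, an alpha-ring chaperone, had 9.997, 9.501, 8.68 and 8.78 CPM with STC1OE corpses, 10.3, 9.10, 8.74 and 10.9 CPM with control corpses and 6.66, 7.18, 7.69 and 7.63 CPM in macrophages alone. It rose by 0.34 ± 0.08 with STC1OE corpses and 0.42 ± 0.08 with control corpses, with no overlap between libraries with and without corpses (edgeR, adjusted p 0.000822 and 5.92e-05). Its partner in the same dimer, Psmg1, had log2 fold changes of 0.06 ± 0.07 with STC1OE corpses and 0.03 ± 0.07 with control corpses and was not called. Psmg4 had 10.8, 10.1, 10.4 and 9.78 CPM with STC1OE corpses, 11.2, 10.5, 10.5 and 10.5 CPM with control corpses and 9.08, 9.15, 8.42 and 9.21 CPM in macrophages alone. It rose by 0.20 ± 0.06 with STC1OE corpses and 0.25 ± 0.06 with control corpses (edgeR, adjusted p 0.0137 and 0.00183), and the call with STC1OE corpses was lost without library 3 of macrophages alone (adjusted p 0.0565). Psmd5, a chaperone of the cap base, had 36.3, 38.4, 38.7 and 35.8 CPM with STC1OE corpses, 35.6, 35.5, 35.7 and 35.1 CPM with control corpses and 34.2, 34.2, 34.4 and 33.0 CPM in macrophages alone, and rose with STC1OE corpses by 0.14 ± 0.04 (edgeR, adjusted p 0.00305) and not with control corpses (0.06 ± 0.04, adjusted p 0.173).

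Levels per kilobase of principal transcript allow the genes to be set beside each other. Psmb6 had the highest level in each group, at 175 CPM per kb with STC1OE corpses, 166 with control corpses and for macrophages alone 138, followed in the same order of groups by Psmd8 at 138, 129 and 105 and by Psmd2 at 127, 122 and 95.5. Within the 20S core the lowest of the broadly expressed genes were Psmb8, at 17.1, 16.4 and 14.7 CPM per kb, and Psmb9, at 14.5, 15.2 and 14.9, while Psmb10 stood at 45.2, 45.4 and 47.5, near Psmb5 at 54.5, 51.4 and 43.0. Psma8, the spermatocyte alpha subunit, stood at 0.71, 0.82 and 0.92 CPM per kb.

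Between STC1OE and control corpses, 1 of the 49 tested members rose and none fell, against a background of 5.44% of all genes called, 3.33% higher and 2.12% lower. The median log2 fold change of the members was 0.02, beside -0.0064 for all genes. That gene was Psmd3, a lid subunit (chromosome 11, 98682554 to 98695979), with 97.7, 94.3, 99.6 and 100.3 CPM with STC1OE corpses, 93.1, 86.3, 95.4 and 90.3 CPM with control corpses and 80.0, 77.6, 79.8 and 80.2 CPM in macrophages alone. The corpse groups overlapped, and the log2 fold change of STC1OE over control corpses was 0.10 ± 0.03 (edgeR, adjusted p 0.0446). Against macrophages alone it rose by 0.30 ± 0.03 with STC1OE corpses and 0.20 ± 0.03 with control corpses (edgeR, adjusted p 1.59e-09 and 3.37e-06).

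The call was lost under several alternatives. Leaving out library 2, 3 or 4 of macrophages alone, library 1, 2 or 4 with control corpses, or library 1, 3 or 4 with STC1OE corpses gave an adjusted p between 0.053 and 0.163. Using only the 2 groups compared gave an adjusted p of 0.0844, and upper-quartile scaling gave 0.0738. No member was called beyond 1.2-fold, where 0.0122% of all genes were called in each direction. Next after it came Psmb3 (log2 fold change 0.12 ± 0.04, adjusted p 0.0509), Psmd8 (0.10 ± 0.03, adjusted p 0.053), Psma1 (-0.10 ± 0.03, adjusted p 0.0596) and Psmb6 (0.07 ± 0.02, adjusted p 0.0767; edgeR). The 4 values with STC1OE corpses lay above the 4 with control corpses for 5 members (Psmb3, Psmb6, Psmd2, Psmd5 and Psmd8) and below for 2 (Psma1 and Psmc6), beside 5.86% and 4.85% of all genes.

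The ratios of inducible to constitutive subunit differed between STC1OE and control corpses by -0.03 for Psmb8 over Psmb5, -0.14 for Psmb9 over Psmb6 and -0.06 for Psmb10 over Psmb7 on the log2 scale. In the exact permutation test their adjusted p was 0.514, 0.11 and 0.354. The melanocyte marker sum given earlier was also lower with STC1OE than with control corpses, and reads that did not align made up 14.4% to 17.8% of the reads with STC1OE corpses, 10.8% to 11.5% with control corpses and 11.4% to 14.0% in macrophages alone; the part of either in these values was not tested.

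Other scaling and testing called other members: Psma1, lower, with upper-quartile scaling, 4 genes, all higher, with RLE scaling (Psmb3, Psmb6, Psmd3 and Psmd8), beside 4.15% of all genes higher and 1.93% lower, and 5, all higher, with DESeq2 (Psmb3, Psmb6, Psmd2, Psmd3 and Psmd8), beside 4.44% and 1.85%. The calls also depended on which libraries were used. With libraries 1 and 2 of each group alone, no member was called in this comparison, and 0.164% of all genes were called higher and 0.0363% lower. With libraries 3 and 4 alone, 9 members were called higher (Psmb2, Psmb3, Psmc1, Psmc5, Psmd3, Psmd7, Psmd8, Psmd12 and Psmf1) and 2 lower (Psma1 and Psma3), with 7.83% of all genes higher and 3.78% lower. Psmd7 is an example: its log2 fold change of STC1OE over control corpses was 0.24 in libraries 3 and 4 and -0.01 in libraries 1 and 2. The unaligned share with STC1OE corpses was 14.4% to 14.6% in libraries 1 and 2 and 17.5% to 17.8% in libraries 3 and 4. In macrophages alone it was 13.4% and 14.0% in libraries 1 and 2 and 11.9% and 11.4% in libraries 3 and 4. With control corpses it was 10.8% to 11.5%. The part of the unaligned share in these calls was not tested.

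**Figure D5:**
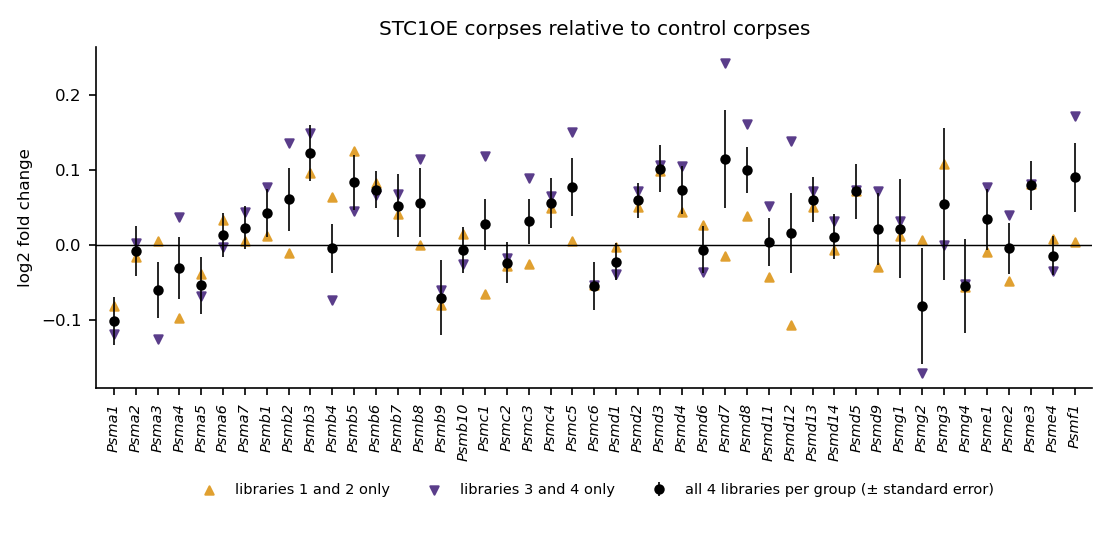
Log2 fold change of STC1OE over control corpses for 45 proteasome genes, ordered by role, from all 4 libraries per group (black, with the standard error), from libraries 1 and 2 only (orange) and from libraries 3 and 4 only (purple). The black points lie between -0.10 and 0.12, and the orange and purple points part widely for Psmd7, Psmd12 and Psmc1.

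Genes around the proteasome moved in several directions. The counts of each list stand beside 21.4% of all genes higher and 22.4% lower with STC1OE corpses. With control corpses the shares are 19.7% higher and 20.5% lower, and between STC1OE and control corpses 3.33% higher and 2.12% lower. With 9 to 14 genes a list, counts near these shares say nothing particular of it. Of 9 tested proteins that bind the complex without bearing its name, 3 rose and 2 fell with each kind of corpse; Uchl5, a deubiquitinase of the cap, rose by 0.23 ± 0.08 with STC1OE corpses and 0.29 ± 0.08 with control corpses, and its receptor Adrm1 by 0.19 ± 0.03 with STC1OE corpses and 0.15 ± 0.03 with control corpses, while Akirin2, which brings proteasomes into the nucleus of human cells, fell by 0.16 ± 0.04 with STC1OE corpses and by 0.19 ± 0.04 with control corpses, and Fbxo7 fell by 0.18 ± 0.05 with STC1OE corpses. Of 12 genes of the pathway by which the transcription factor NFE2L1 induces proteasome genes, 5 rose and 4 fell with STC1OE corpses and 2 rose and 4 fell with control corpses. Vcp, the ATPase that extracts NFE2L1 from the membrane, rose by 0.25 ± 0.02 with STC1OE corpses and 0.24 ± 0.02 with control corpses, and Bach1, a repressor at the same sites, fell by 0.16 ± 0.03 with STC1OE corpses and by 0.22 ± 0.03 with control corpses. Maff, a small partner factor, rose with STC1OE corpses by 0.24 ± 0.09. The related factor Nfe2l2 fell by 0.33 ± 0.03 with STC1OE corpses and by 0.37 ± 0.03 with control corpses. Nfe2l1 itself was called in neither, and rose with STC1OE relative to control corpses by 0.10 ± 0.03 (edgeR, adjusted p 0.029), the 1 gene of the 12 called there.

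Of 14 genes that make ubiquitin or carry substrates to the proteasome, 7 rose and 1 fell with STC1OE corpses and 6 rose and 2 fell with control corpses. Sqstm1, the autophagy receptor p62, rose by 0.51 ± 0.03 with STC1OE corpses and 0.25 ± 0.03 with control corpses, and by 0.26 ± 0.03 between STC1OE and control corpses (edgeR, adjusted p 1.7e-16, 1.9e-09 and 1.7e-07). Uba1, the main ubiquitin-activating enzyme, rose by 0.28 ± 0.02 with STC1OE corpses and 0.17 ± 0.02 with control corpses, and by 0.11 ± 0.02 between the corpse groups, and the shuttle Rad23b rose by 0.26 ± 0.03 with STC1OE corpses and 0.18 ± 0.03 with control corpses. Rps27a, a ubiquitin and ribosomal protein fusion, fell by 0.38 ± 0.04 with STC1OE corpses and by 0.32 ± 0.04 with control corpses. Of 9 genes of peptide transport, trimming and MHC class I, 4 rose with STC1OE corpses and 7 with control corpses and 0 fell; Tapbp, the chaperone of peptide loading, rose by 0.19 ± 0.03 with STC1OE corpses and 0.12 ± 0.03 with control corpses, Nlrc5, an activator of class I genes, rose with control corpses by 0.15 ± 0.05, Erap1, which trims peptides in the endoplasmic reticulum, rose by 0.13 ± 0.03 with STC1OE corpses and 0.16 ± 0.03 with control corpses, and H2-D1, a class I heavy chain, by 0.21 ± 0.03 with STC1OE corpses and 0.10 ± 0.03 with control corpses.

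Of 13 genes of interferon signalling, which control the inducible subunits, 4 rose and 5 fell with STC1OE corpses and 5 rose and 7 fell with control corpses. The feedback inhibitor Socs1 rose by 0.61 ± 0.10 with STC1OE corpses and 0.69 ± 0.10 with control corpses, while Ifngr1, the ligand-binding chain of the interferon gamma receptor, fell by 0.56 ± 0.03 with STC1OE corpses and by 0.57 ± 0.03 with control corpses. None of the 13 was called between STC1OE and control corpses, where 5.44% of all genes were called. With 13 genes this is no result about the list.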

How the data were processed

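RNA sequencing counts of 12 libraries in 3 groups of 4 were analysed; titles gave each library's group and number. The files deposited by the authors hold unscaled counts of reads for each gene, made with HISAT2 and HTSeq, per the submitters' processing notes, which also name DESeq2 and the builds mm10 and GRCm38 without versions. The sources used here give neither the annotation release nor the strand setting of the counting. Lines that name no gene held 5.17% to 17.8% of the reads each and entered neither the library sizes nor the tests.

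Symbols, biotypes and coordinates came from GENCODE vM21 on GRCm38, by identifier without version: 54723 of 55604 genes had a symbol and 881 did not. Psmb11 alone of the 50 members did not pass the low-count filter. Counts were tested with edgeR 4.0.16 (R 4.3.3). Low counts were filtered by filterByExpr (minimum 10, total 15), libraries were scaled by TMM, and 1 robust quasi-likelihood model was fitted to all 12 libraries. Tests were two-sided, and p-values were adjusted by the method of Benjamini and Hochberg over 16406 genes, with a threshold of 0.05. CPM values use the TMM-scaled library sizes. Levels per kilobase use the length of the principal transcript, which need not be the isoform present. Ratios of inducible to constitutive subunit were compared by exact permutation tests over libraries, with 0.5 added to each count on the log2 scale, and adjusted over 9 tests. The scripts were tested on simulated data.

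Alternatives were RLE and upper-quartile scaling, no filter, DESeq2 1.42.0, fits of the 2 groups compared only, the replicate number as a block, a test against 1.2-fold, libraries 1 and 2 or 3 and 4 only, and each library left out in turn. Members named with the value of every library were the catalytic subunits, the activators and the inhibitor, and in every other class the called genes with the largest and the smallest fold change in each comparison; of each related list, at most 3 called genes with the largest absolute change were named. A gene that this rule names is not reported here. The rule does not name Psmd8, which is also given with the value of every library. Psmd10, Psmb11, Psme2b and further genes named with a fold change only were added after their values were seen. The members and the lists were chosen with earlier results of these data known. The p-values measure the spread between these libraries. Counting error is part of that spread and was not estimated apart from it. The limit that a count of 0 allows, 3 reads, corresponds to 0.0750 to 0.105 CPM. Promoter windows came from RefSeq.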

Additional observations from a re-analysis of the deposited data

Results flagged for a closer look

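Of 96 groups of 4 libraries looked at, 7 had a library far from the other 3; chance alone gives this in about 1 in 20 groups. The most extreme was Psmd10, which codes for the 19S chaperone gankyrin, on the X chromosome. It had 13.0 CPM (401 reads) in library 2 with STC1OE corpses, where the other 3 libraries of the group lay between 0.298 and 0.591 CPM, and 6.05 CPM (214 reads) in library 4 of macrophages alone, where the others lay between 0.306 and 0.380 CPM. With control corpses it had 0.207 to 0.348 CPM. It was called in no comparison, with log2 fold changes of 3.53 ± 1.72 (SE) for STC1OE over control corpses, 0.94 ± 1.31 for STC1OE corpses over macrophages alone and -2.59 ± 1.84 for control corpses over macrophages alone, all set by those 2 libraries.

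The remaining flags were small in size. Library 2 with control corpses was low for Psme3, at 95.2 CPM beside 103.1 to 103.9 CPM, and for Psmb3, at 50.8 CPM beside 54.7 to 55.1 CPM. Library 1 with control corpses was high for Psmg4, at 11.2 CPM beside 10.5 CPM in each of the others, and library 3 of macrophages alone was low for the same gene, at 8.42 CPM beside 9.08 to 9.21 CPM. Library 4 of macrophages alone was low for Psmd5, at 33.0 CPM beside 34.2 to 34.4 CPM.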

How the results depend on the processing

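Between STC1OE and control corpses, the count of proteasome genes called, 1 in the main analysis, was 4 with RLE scaling and 4 without the low-count filter, 5 with DESeq2, 0 with only the 2 groups compared, 0 against 1.2-fold, 0 with libraries 1 and 2 and 11 with libraries 3 and 4, and between 0 and 4 with a library left out. Of all genes, 638 of 29856 were called higher and 451 lower without the filter, 423 and 301 of 15885 with only the 2 groups, 447 and 395 of 16406 with upper-quartile scaling, and 281 to 727 higher and up to 473 lower with a library left out. With upper-quartile scaling the 1 gene called was Psma1, lower, and not Psmd3. The counts with STC1OE corpses relative to macrophages alone (34) and with control corpses relative to macrophages alone (30) were 6 and 1 against 1.2-fold and within 1.5 times of the main count under every other alternative; with a library left out they ran from 31 to 36 and from 29 to 31. Of the named genes called, 20 of 24 with STC1OE corpses, 20 of 21 with control corpses and 0 of 1 between the corpse groups kept the call with each library left out. The log2 ratio of Psmb8 to Psmb5 between STC1OE and control corpses, -0.03, was -0.13 with libraries 1 and 2, 0.071 with libraries 3 and 4 and -0.058 to 0.00073 with a library left out; the other 8 ratio comparisons moved by less than the spread between libraries, and no result changed sign past its threshold. The cause of these differences was not tested.

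Same-numbered libraries did not deviate together in every pair (correlations of -0.23 to 0.30 over the 3 comparisons, and of 0.15, 0.30, -0.02 and 0.17 between STC1OE and control corpses, where 3 of 4 were over 0.1), so the numbers were not taken to pair the samples. With the replicate block the count between STC1OE and control corpses was 3, 2 higher (Psmb3 and Psmd3, adjusted p 0.0198 and 0.0181) and 1 lower (Psma1, 0.0324; edgeR), with 677 of all genes higher and 412 lower; the exact test with the sign flips of 4 pairs cannot give a p below 0.125.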
